A study of Mus musculus with 11 samples.

Results

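Expression of 7 Sox genes of neural progenitors (Sox1, Sox2, Sox3, Sox4, Sox9, Sox11 and Sox21) was measured in mouse embryos, before and after the neural folds close. The genes were chosen by name, with earlier results of these data known. Their counts beside the shares of all tested genes are therefore descriptions. They had 24 of the 34945 probe sets that carry a single gene symbol, and all 7 were among the 13338 of 18193 genes that were tested. For each gene the probe set with the highest mean over the 11 arrays was used, and the others served as a check.

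The samples came from C57BL/6 embryos, and the labels name no genetic change or drug. Open neuroepithelium gave 3 arrays at embryonic day 8.5 (E8.5) and 3 at E9.5. Closed neural tube gave 2 at the earlier and 3 at the later stage. All tissue was incubated in 2.5% pancreatin and 0.5% trypsin, for 5 min at E8.5 and 8 min at E9.5, and kept the notochord that adheres to it. Each array held tissue pooled by litter, from 111 embryos in all, and 1 further closed E8.5 array had been removed by the authors for its quality. Closed tissue lay rostral to open tissue, so closure and axial level cannot be told apart, nor can stage and enzyme time.

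Sox proteins bind DNA through an HMG box, a domain that bends the double helix. The SoxB1 proteins Sox1, Sox2 and Sox3 keep neural cells in a dividing, undifferentiated state, and their genes are the classic early markers of the neural plate. Sox21, of the SoxB2 group, represses genes that SoxB1 proteins activate. The SoxC proteins Sox4 and Sox11 activate neuronal genes and support cell survival, and the SoxE protein Sox9 acts in neural stem cells, neural crest and cartilage. In the caudal embryo, Sox2 is also expressed in the progenitors that give rise to both spinal cord and mesoderm.

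Signals are log2 values as the authors deposited them, and differences are log2 differences with the standard error (SE) of a limma model over all tested genes. A gene passed when its Benjamini-Hochberg adjusted p, over all 13338 genes, was under 0.05. Signals of different probe sets were not compared with each other, since probe sets differ in binding strength. In bulk tissue, fewer cells that express a gene and less RNA per cell cannot be told apart. All 15 listed SoxB1 partner and progenitor genes (among them Nes and Pax6) had group means at or above the low-signal limit of 4.30 in each of the 4 groups. RNA quality varied: in the Gapdh and Actb controls, 3-prime exceeded 5-prime signal by 1.14 to 2.48 (log2), with the highest values in open E9.5 replicates 1 and 2 (2.20 and 2.48).

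At E8.5, Sox1, Sox21 and Sox9 were higher in closed neural tube than in open neuroepithelium. These were 3 of 7 Sox genes past the threshold, all higher, where 7.17% of all tested genes passed, 3.79% as higher and 3.38% as lower. At E9.5 the same 3 genes and Sox2 were higher in closed tissue, 4 of 7, where 8.54% of all tested genes passed, 2.75% as higher and 5.79% as lower. From E8.5 to E9.5, Sox1 and Sox11 rose in open tissue, 2 of 7, where 5.02% of all tested genes passed, 3.61% as higher and 1.42% as lower. That background depended on scaling: of the genes called in open tissue 71.8% were higher as deposited and 61.3% after quantile normalization. In closed tissue 0 of 7 passed between the stages, where 2.42% of all tested genes did (0.96% as higher and 1.46% as lower), and 2 of them, Sox11 and Sox9, had an unadjusted p under 0.05 (0.00196 and 0.0143). The region difference itself changed between the stages for 1 of 7, Sox1, where 1.25% of all tested genes passed (0.3% upward and 0.952% downward).

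**Figure D1:**
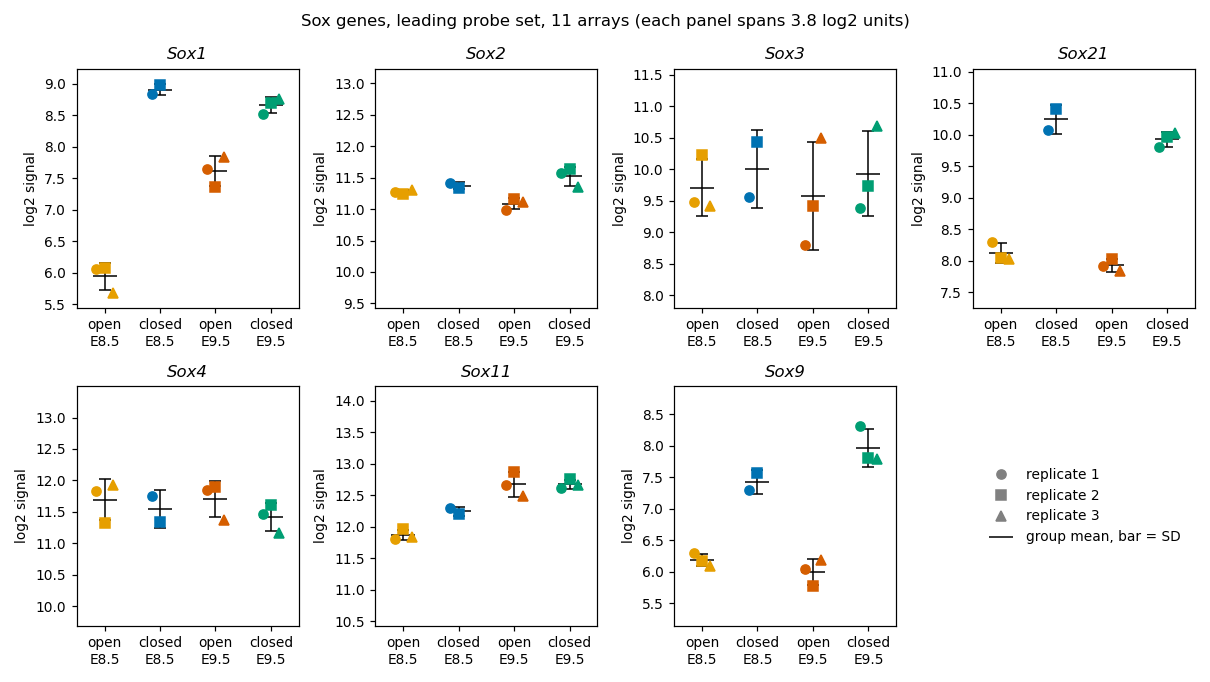
Log2 signal (vertical axis) of the leading probe set of each Sox gene in the 4 groups (horizontal axis); points are arrays, the horizontal line is the group mean and the bar its SD, and every panel spans the same log2 range. Sox1, Sox21 and Sox9 sit higher in closed than in open arrays at both stages, Sox11 sits higher at E9.5 than at E8.5, and the Sox3 and Sox4 groups overlap.

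With its leading probe set, Sox1 had the largest region difference of the 7 at E8.5 and was the only one of the 7 whose difference changed with stage. Its signal in open E8.5 arrays was 6.06, 6.08 and 5.68, and in closed E8.5 arrays 8.84 and 8.98. In open E9.5 arrays it was 7.64, 7.37 and 7.83, and in closed E9.5 arrays 8.52, 8.70 and 8.76. No 2 groups overlapped, and open E8.5 tissue stood lowest, although closed E9.5 and closed E8.5 arrays lay only 0.08 apart at their nearest. The mean rose from 5.94 ± 0.22 (SD, n = 3) in open to 8.91 ± 0.09 (SD, n = 2) in closed E8.5 tissue, a log2 difference of 2.97 (SE 0.17, limma adjusted p = 6.96e-07) or 7.83-fold. At E9.5 the means were 7.62 ± 0.23 and 8.66 ± 0.13 (SD, n = 3 each), a difference of 1.05 (SE 0.15, limma adjusted p = 0.000956) or 2.06-fold.

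The narrowing came with a rise of Sox1 in open tissue. Between E8.5 and E9.5 it rose there by 1.68 (SE 0.15, limma adjusted p = 9.66e-05), 3.19-fold. In closed tissue it differed by -0.25 (95% interval -0.63 to 0.13, limma adjusted p = 0.815). The region difference therefore changed by -1.92 (SE 0.23, limma adjusted p = 0.00191), rank 24 of 13338 genes by p for that contrast. Summed blood and vessel markers rose with stage in both regions. In open tissue they went from 7.92 to 9.63 in E8.5 arrays to 12.28 to 12.83 in E9.5 arrays. In closed tissue they went from 9.67 to 9.87 in E8.5 arrays to 11.18 or more in E9.5 arrays. The embryonic globin Hbb-y, the brightest of these markers at E9.5, had means of 6.96 and 12.14 in open tissue (E8.5, then E9.5). Its means in closed tissue were 8.65 and 11.47. The part of blood and vessel cells in the stage differences of Sox1 and Sox11 was not tested. The second Sox1 probe set, 1422205_at, had low signal (4.06 to 4.77 over all arrays) and differed by 0.30 at E8.5 and 0.05 at E9.5 without passing (limma adjusted p = 0.566 and 0.918, all probe sets tested one by one).

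Sox21 had nearly the same region difference at both stages. Its open E8.5 arrays read 8.30, 8.04 and 8.02, and its closed E8.5 arrays 10.08 and 10.41. Its open E9.5 arrays read 7.92, 8.03 and 7.83, and its closed E9.5 arrays 9.80, 9.96 and 10.03. Open arrays of both stages overlapped each other and lay below every closed array. Closed tissue exceeded open tissue by 2.12 at E8.5 (SE 0.15, limma adjusted p = 2.66e-06, 4.36-fold) and by 2.01 at E9.5 (SE 0.13, limma adjusted p = 1.48e-06, 4.02-fold). The change between the stages was -0.12 (95% interval -0.54 to 0.31, limma adjusted p = 0.901). The second Sox21 probe set, 1451835_at, gave 2.47 at E8.5 and 3.01 at E9.5, and passed at both (limma adjusted p = 0.00457 and 0.000474, all probe sets tested one by one).

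The sequences upstream of Sox1 and Sox21 are shown because both genes rose from open to closed tissue, and that of Sox11 because it rose with stage. RefSeq promoter windows (GRCm38.p6) were matched for 5 of the 7 genes: Sox1, Sox2, Sox4, Sox11 and Sox21. The 250 bases before each start are printed 5′ to 3′ on the gene's strand, with matches to the searched motifs in capitals. They lie at chr8:12395269-12395518 (plus strand), chr14:118237031-118237280 (minus strand) and chr12:27342719-27342968 (minus strand).
Sox1: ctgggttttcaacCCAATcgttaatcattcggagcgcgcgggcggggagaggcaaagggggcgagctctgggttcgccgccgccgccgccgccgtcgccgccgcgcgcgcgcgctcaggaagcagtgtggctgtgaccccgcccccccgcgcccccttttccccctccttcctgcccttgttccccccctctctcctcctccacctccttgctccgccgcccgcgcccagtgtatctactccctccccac
Sox21: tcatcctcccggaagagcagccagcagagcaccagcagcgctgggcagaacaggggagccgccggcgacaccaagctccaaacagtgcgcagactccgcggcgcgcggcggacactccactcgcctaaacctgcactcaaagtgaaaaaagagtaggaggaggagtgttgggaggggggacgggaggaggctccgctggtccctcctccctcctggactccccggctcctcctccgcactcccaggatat
Sox11: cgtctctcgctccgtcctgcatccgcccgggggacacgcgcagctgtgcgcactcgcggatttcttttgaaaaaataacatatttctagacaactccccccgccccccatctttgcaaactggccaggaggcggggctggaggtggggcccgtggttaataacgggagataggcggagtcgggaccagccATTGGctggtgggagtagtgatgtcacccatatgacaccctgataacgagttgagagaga
The motifs searched on both strands were the TATA box TATAAA, the CCAAT box CCAAT, the octamer ATGCAAAT bound by POU factors, and the Sox cores ACAAAG and ACAAT. The Sox1 and Sox11 windows each held 1 match, a CCAAT box, which 33.8% of 32851 mouse windows of this length also held. The Sox21 window held 0 matches. Of the other windows, Sox4 held 4 CCAAT boxes and Sox2 held 1, and Sox2 also held the Sox core ACAAAG, which 16.5% of windows held. TATAAA, ATGCAAAT and ACAAT, found in 12.4%, 1.6% and 27.7% of all windows, were in none of these 5. GC content was 71.2% for Sox1, 65.2% for Sox21 and 58% for Sox11. A match is a run of letters and not a measured binding site.

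Sox2, the SoxB1 gene expressed across neural plate and tube, had a nearly flat signal over the 4 groups. Its open E8.5 arrays read 11.28, 11.23 and 11.30 and its closed E8.5 arrays 11.41 and 11.33. Its open E9.5 arrays read 10.99, 11.15 and 11.11 and its closed E9.5 arrays 11.58, 11.63 and 11.34. The groups at E8.5 did not overlap but lay only 0.03 apart, and closed arrays of both stages overlapped each other. At E8.5 the difference was 0.10 (95% interval -0.13 to 0.33, limma adjusted p = 0.850). At E9.5 closed tissue was higher by 0.43 (SE 0.09, limma adjusted p = 0.0117), 1.35-fold.

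The Sox2 call at E9.5 was close to the threshold. It was lost without open E9.5 replicate 1 (limma adjusted p = 0.0620) and without closed E9.5 replicates 1 or 2 (0.0505 and 0.0633), and with only the 2 E9.5 groups in the model (0.0547). The change of its region difference between the stages was 0.33 (95% interval 0.03 to 0.64) and did not pass (limma adjusted p = 0.456). Sox2 had a single probe set, so no other probe set could check it.

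Sox3, the third SoxB1 gene, spread more within groups than between them. Its open E8.5 arrays read 9.49, 10.23 and 9.42, its closed E8.5 arrays 9.56 and 10.44, its open E9.5 arrays 8.80, 9.42 and 10.50, and its closed E9.5 arrays 9.38, 9.73 and 10.69. All 4 groups overlapped their neighbours in the order of the means. The region difference was 0.29 at E8.5 (95% interval -0.78 to 1.36) and 0.36 at E9.5 (95% interval -0.60 to 1.32). A log2 difference of 1 toward closed tissue, which is 2-fold, lies inside both intervals. With arrays of the same number and stage taken as pairs, Sox3 passed at E9.5 (0.36, SE 0.10, limma adjusted p = 0.0273): closed exceeded open by 0.58, 0.31 and 0.19 in pairs 1, 2 and 3. With pairs, 2221 genes (16.7%) passed at E9.5, against 1139 without. Probe set 1450485_at, the dim second one of Sox3 (mean 4.91), differed without pairs by -0.09 at E8.5 and 0.04 at E9.5. It did not pass (limma adjusted p = 0.986 and 0.941, all probe sets tested one by one).

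Among SoxC genes, Sox11 rose with stage. Its open E8.5 arrays read 11.81, 11.96 and 11.83, and its open E9.5 arrays, all higher, 12.66, 12.87 and 12.49. Its closed E8.5 arrays read 12.29 and 12.19, and its closed E9.5 arrays, again all higher, 12.61, 12.75 and 12.66. In open tissue the rise was 0.80 (SE 0.10, limma adjusted p = 0.000503), 1.74-fold. In closed tissue the difference was 0.43 (SE 0.11) with a limma adjusted p of 0.0698. Without open E9.5 replicate 2 or 3 the limma adjusted p was 0.0321 and 0.0266. These arrays do not enter the closed-tissue difference, which stayed at 0.43, so only the estimated spread and the adjustment could change. With each single array left out, the difference ran from 0.38 to 0.48.

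Between the regions, Sox11 differed by 0.38 at E8.5 (SE 0.11, limma adjusted p = 0.0612), where all closed arrays lay above all open ones. With arrays of the same number as pairs it passed (0.36, limma adjusted p = 0.0333). It also passed without open E9.5 replicate 2 or 3 (limma adjusted p = 0.0268 and 0.0226), arrays that do not enter this difference. Without closed E8.5 replicate 1 or 2, which do enter it, the difference was 0.33 and 0.43. Over all alternatives run, the difference lay between 0.12 and 0.43 and the limma adjusted p between 0.0173 and 0.763, with the lowest difference from the mean of its probe sets. The other 5 probe sets differed between the E8.5 regions by 0.09, 0.14, 0.20, 0.26 and, for 1436790_a_at, -0.33, and none of them passed. At E9.5 the region means were 12.67 and 12.67, a difference of 0.00 (95% interval -0.21 to 0.21). All 6 Sox11 probe sets had higher means at E9.5 than at E8.5 in both regions. In open tissue their differences ran from 0.28 to 0.96, and 2 of 6, 1431225_at and 1453002_at, passed when all probe sets were tested one by one (limma adjusted p = 0.00107 and 0.0296).

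Sox4, the other SoxC gene, showed no difference past the threshold in any comparison. Its open E8.5 arrays read 11.83, 11.33 and 11.93, its closed E8.5 arrays 11.76 and 11.33, its open E9.5 arrays 11.84, 11.90 and 11.37, and its closed E9.5 arrays 11.47, 11.61 and 11.17. All neighbouring groups overlapped. The region difference was -0.15 at E8.5 (95% interval -0.62 to 0.32) and -0.29 at E9.5 (95% interval -0.71 to 0.13). With arrays of the same number as pairs, closed E9.5 tissue was lower (-0.29, SE 0.07, limma adjusted p = 0.0163), with pair differences of -0.37, -0.29 and -0.20. The next brightest probe sets, 1419155_a_at and 1419156_at, differed at E9.5 by 0.17 and 0.08, the other way.

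Sox9 was higher in closed tissue at both stages. Its open E8.5 arrays read 6.30, 6.17 and 6.10 and its closed E8.5 arrays 7.30 and 7.56. Its open E9.5 arrays read 6.04, 5.78 and 6.18 and its closed E9.5 arrays 8.31, 7.80 and 7.79. Open arrays overlapped between the stages, and each closed group lay above every open array. The difference was 1.24 at E8.5 (SE 0.19, limma adjusted p = 0.00122, 2.37-fold) and 1.97 at E9.5 (SE 0.17, limma adjusted p = 1.27e-05, 3.91-fold).

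Sox9 was the 1 Sox gene whose region difference was larger at E9.5 by more than 0.5, but that change (0.72, 95% interval 0.18 to 1.27) did not pass (limma adjusted p = 0.309). In closed tissue its E9.5 arrays all lay above its E8.5 arrays, a difference of 0.54 (SE 0.19, limma adjusted p = 0.241). The second probe set, 1424950_at, gave 0.87 at E8.5 (limma adjusted p = 0.0661) and 1.51 at E9.5 (0.00122), and the third, 1433889_at, 0.32 (0.406) and 0.53 (0.0349), all probe sets tested one by one.

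Markers of other cells that express Sox9 moved with region. Of 10 listed neural crest markers 9 were measured, with 7 at or above the low-signal limit in open and 9 and 8 in closed tissue at E8.5 and E9.5. Their summed signal (log2) was 9.75 to 9.87 in open and 10.43 to 10.73 in closed E8.5 arrays, and 9.82 to 10.30 in open and 10.67 to 10.71 in closed E9.5 arrays. Of 8 tested, 4 were higher and 0 lower in closed tissue at each stage, where 3.79% and 2.75% of all tested genes were higher. Foxd3, an early crest factor, differed by 1.99 and 2.16 from open means at and just above the limit (4.30 and 4.39). Snai2 had lower means in closed tissue (7.20 against 7.41 at E8.5, and 7.01 against 7.70 at E9.5). Cdh6 was the brightest marker in this sum, with means of 8.91 in open and 9.75 in closed E8.5 tissue. Summed notochord markers (8 of 10 measured) ran the other way at E8.5, with 12.37 to 12.73 in open and 10.90 to 11.32 in closed arrays, and overlapped at E9.5. Noto and T were not among those measured. Shh and Foxa2 were also listed for floor plate, and Krt8 and Krt18 for surface ectoderm, so this sum is not specific to notochord. Cdx2, also among the caudal genes described below, was the brightest of the measured markers in open tissue. Its means were 11.31 and 11.07 there (E8.5, then E9.5), and 7.80 and 9.03 in closed tissue. Of 7 tested, 0 were higher and 5 lower in closed E8.5 tissue, and 2 were higher and 1 lower at E9.5. Of all tested genes, 3.38% and 5.79% were lower. The means of Foxa2 and Nog were higher in closed E8.5 tissue (8.36 and 5.35, against 7.77 and 4.77 in open). Of 6 tested floor plate markers, 4 were higher in closed E8.5 tissue, among them Spon1 (2.78) and Ntn1 (1.86), and 1, the secreted signal Shh, was lower (-0.89), while all 6 were higher in closed E9.5 tissue. Their summed signal (7 of 8 measured), in which Shh is the brightest probe set, was 11.10 to 11.40 in open and 11.10 to 11.32 in closed E8.5 arrays, and 10.58 to 10.83 in open and 11.51 to 11.83 in closed E9.5 arrays. Summed somite markers (10 of 10 measured) were 8.39 to 8.59 in open E8.5, 8.17 to 8.54 in open E9.5 and 8.11 to 8.14 in closed E9.5 arrays. The 2 closed E8.5 arrays differed in them, with 8.28 and 9.36; replicate 2 was higher in Meox1 (8.11 against 6.30) and Foxc2 (6.50 against 4.08), as it was in Sox9. Without that replicate the Sox9 difference was 1.11 (limma adjusted p = 0.0172). The part of these cells in the Sox9 difference was not tested.

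**Figure D2:**
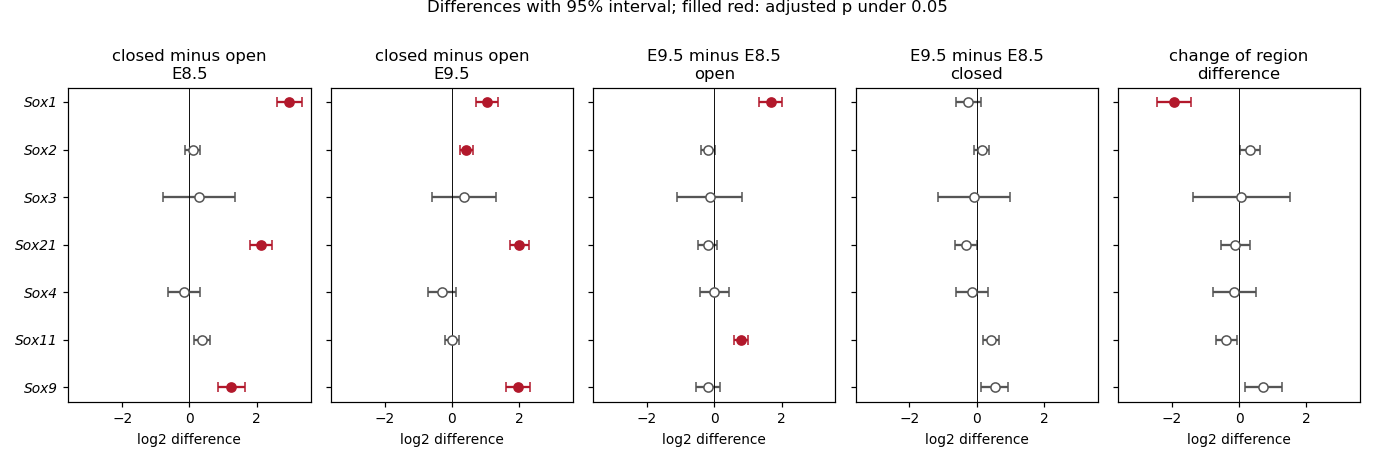
Log2 differences (horizontal axis) of the 7 Sox genes in the 5 contrasts, with 95% intervals of the limma model; filled red points passed at an adjusted p under 0.05. Sox1 changes most between the stages (1.68 in open tissue, and -1.92 for the region difference), while the Sox3 intervals are the widest.

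Groups did not overlap for 5 of 7 Sox genes between the regions at E8.5 (27.5% of all tested genes, 14.9% higher and 12.6% lower), all higher in closed tissue. They did not overlap for 4 of 7 at E9.5, again all higher (22.5% of all tested genes, 8.82% higher and 13.7% lower). Between the stages they did not overlap for 3 of 7 in open tissue (21.8%, 12.1% higher and 9.75% lower), where Sox1 and Sox11 lay higher and Sox2 lower at E9.5, and for 4 of 7 in closed tissue (21.2%, 7.86% higher and 13.3% lower). In closed tissue the 4 were Sox11 and Sox9, with all E9.5 arrays above, and Sox1 and Sox21, with all E9.5 arrays below. Over the 7 genes the median difference between the regions was 0.38 at E8.5 and 0.43 at E9.5, beside 0.00 and -0.01 over all tested genes.

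**Figure D3:**
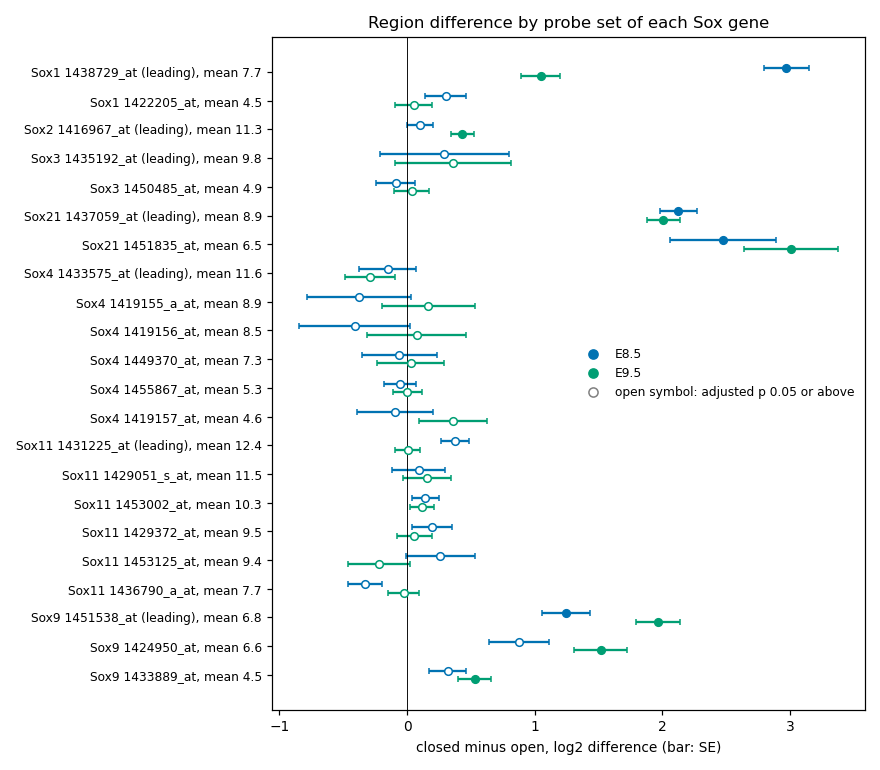
Closed minus open log2 difference (horizontal axis, bar = SE) at E8.5 and E9.5 for each probe set of the 7 Sox genes at or above the low-signal limit; filled symbols passed when all probe sets were tested one by one. Both Sox21 probe sets passed at both stages, the leading probe set of Sox1 did and its dim second one did not, and the Sox4 probe sets lie below 0 at E8.5 and on both sides of it at E9.5, with none past the threshold.

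Sox3 and Sox4, like many probe sets on these arrays, moved with RNA quality inside the groups. In each of the 4 groups the array with the lowest 3-prime excess had the highest Sox3 signal of its group (10.23, 10.44, 10.50 and 10.69). The same arrays had the lowest signal of the leading Sox4 probe set (11.33, 11.33, 11.37 and 11.17) and the highest of Sox4 probe set 1419155_a_at (9.53, 9.42, 9.28 and 9.20), so probe sets of 1 gene went opposite ways. Of the 24 member probe sets, 22 of them at or above the low-signal limit, 6 were highest and 3 lowest in that array in all 4 groups. Over all 23203 probe sets tested one by one, 18.6% were highest and 15.1% lowest there, 33.7% together. The pattern is thus not particular to the Sox probe sets. The leading probe set of Sox1 was among the 6, and those of Sox9, Sox11 and Sox21 were in neither set. The second Sox21 probe set, 1451835_at, was among the 6, and the third Sox9 probe set, 1433889_at, was among the 3.

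With the 3-prime excess in the model, the Sox3 difference at E9.5 was -0.25 (limma adjusted p = 0.569) and its stage difference in open tissue 0.72 (0.143). With both the excess and the pairs, Sox3 and Sox4 no longer passed at E9.5 (limma adjusted p = 0.193 and 0.0953), and Sox2 had 0.345 (0.0532). For Sox1, Sox21 and Sox9, the region differences passed at both stages in all alternatives run, with Sox1 at 1.64 to 3.05 and 0.55 to 1.15, Sox21 at 1.96 to 2.30 and 1.96 to 2.51, and Sox9 at 0.81 to 1.38 and 1.34 to 2.06 (E8.5, then E9.5). The lowest Sox1 values, 1.64 and 0.55, came from the mean of its bright and its dim probe set.

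**Figure D4:**
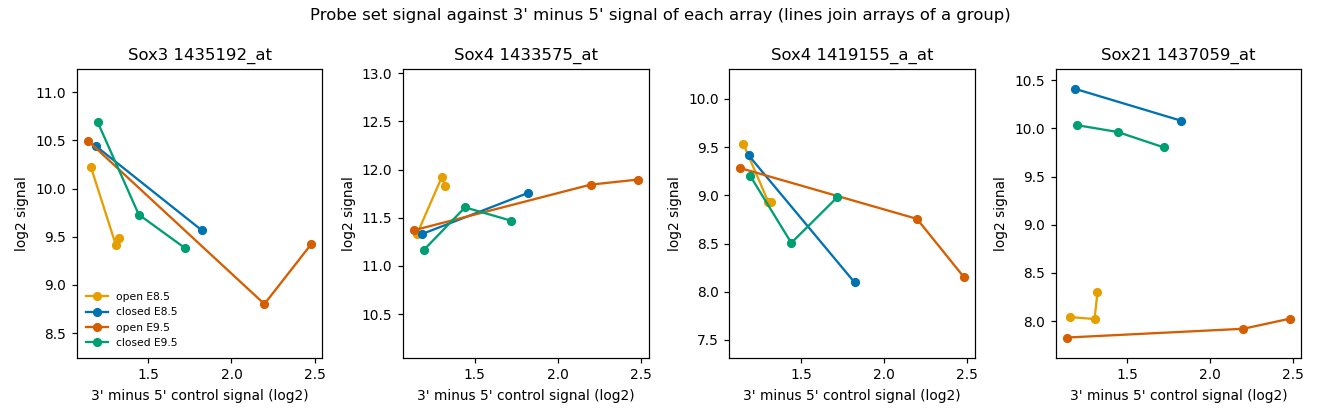
Log2 signal of 4 probe sets (vertical axis) against the 3-prime minus 5-prime control signal of each array (horizontal axis, log2); lines join the arrays of a group. Within groups, Sox3 and Sox4 probe set 1419155_a_at are highest and the leading Sox4 probe set is lowest at the lowest 3-prime excess, while the closed and open Sox21 arrays stay apart.

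Of 12 other Sox genes measured, 9 were tested, and Sox8, Sox17 and Sox30 lay below the low-signal limit. Sox6, which acts with Sox5 in neural progenitors and cartilage, was higher in closed tissue at E8.5 (0.91, SE 0.21, limma adjusted p = 0.0184) and at E9.5 (1.08, SE 0.19, limma adjusted p = 0.00282). Sox18, a gene of vessel lining cells, was higher in closed tissue at E8.5 (1.01, SE 0.11) and lower in closed tissue at E9.5 than at E8.5 (-0.99, SE 0.11). Its closed E8.5 arrays read 5.72 and 5.84 and all others 4.42 to 4.93, while the vessel markers Cdh5, Pecam1, Tie1 and Tek had means below the limit in all 4 groups. Kdr, another vessel marker, had means of 5.66 in open and 5.79 in closed E8.5 tissue and of 5.23 in open and 5.92 in closed E9.5 tissue, where it was higher (0.69, limma adjusted p = 0.00980). Sox10, the neural crest SoxE gene, did not pass with its leading probe set (0.40 at E9.5, limma adjusted p = 0.225) but did with 1451689_a_at, which read 5.41 to 5.69 in open and 6.81 to 6.87 in closed E9.5 arrays (limma adjusted p = 0.000293, all probe sets tested one by one). The remaining Sox5, Sox7, Sox12, Sox13, Sox14 and Sox15 had 0 calls with their leading probe sets. Sox5 probe set 1423500_a_at was higher in closed E9.5 tissue (1.16, SE 0.24, limma adjusted p = 0.0157, all probe sets tested one by one).

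Genes that act with the Sox genes were read from lists. Of 15 SoxB1 partner and progenitor genes, 6 were higher and 0 lower in closed tissue at each stage (medians 0.55 and 0.03), where 3.79% and 2.75% of all tested genes were higher. Pax6, which patterns the ventricular zone, differed by 3.83 and 3.13, and Rfx4 by 2.57 and 3.95. Between the stages in open tissue 2 rose, Fabp7 (1.66) and Vim (1.62), and 2 fell, Rfx4 (-1.80) and Hes5 (-0.90), where 3.61% of all tested genes rose and 1.42% fell. Of 13 tested caudal genes, among them the Wnt and FGF signals that act on Sox2 in the caudal epiblast, 10 were lower in closed tissue at E8.5 and 8 at E9.5, and 0 were higher (medians -1.83 and -1.63), where 3.38% and 5.79% of all tested genes were lower. Cyp26a1, which breaks down retinoic acid (-4.11 and -5.28), and the homeobox gene Cdx4 (-2.85 and -2.02) were among them. So was Fgf8, whose means were 8.21 and 7.97 in open tissue and lay below and just above the limit in closed tissue (3.84 and 4.38), so that the size of its difference is not given. Sox2 itself differed by 0.10 and 0.43 in the same contrasts.

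Neuronal genes that SoxC proteins can activate changed in both directions. Of 15 listed genes 8 were tested, and 2 were higher and 1 lower in closed tissue at E8.5, and 3 higher and 1 lower at E9.5, where 7.17% and 8.54% of all tested genes passed. Neurog2, a proneural factor, was higher (1.68 and 2.78), as was the RNA-binding gene Elavl4 (0.71 and 1.09), while the microtubule genes Stmn2 (-1.36 at E8.5) and Map2 (-1.71 at E9.5) were lower. In open tissue, where Sox11 rose with stage, Map2 rose (0.81) and Stmn2 (-1.98) and Neurog2 (-0.98) fell. Of 12 tested cartilage, matrix and glial genes linked to Sox9, 0 passed at E8.5 with limma (0 at an unadjusted p under 0.05). At E9.5, 1 passed, the collagen gene Col9a1 (1.46, higher), and 4 had an unadjusted p under 0.05. That 1 is a share near the 8.54% of all tested genes that passed, where 2.75% passed as higher. The collagen gene Col2a1 rose in closed tissue between the stages (1.65, limma adjusted p = 0.0303).

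Among the tested genes outside the Sox family, those most like Sox21 over the 11 arrays were Nkx6-1, Olig2 and Ednrb (Pearson correlation 0.988 each). Their group means in open E8.5, closed E8.5, open E9.5 and closed E9.5 tissue were 5.61, 8.58, 5.02 and 8.35 for Nkx6-1, and Olig2 and Ednrb followed the same order of regions. Those most like Sox9 were Efnb2 and Zfp41 (0.984 each) and Fmn2 (0.976). Those most like Sox1 were Baz1a (0.970), Ston2 (0.969) and Plk3 (0.963), and Ston2 had means of 6.48, 8.13, 7.39 and 7.77. All 11 arrays belong to the same 4 groups, so these points are not independent, and the values are descriptions. The 7 Sox genes differed among themselves in the same measure: Sox9 and Sox21 had 0.924, Sox1 and Sox21 0.800, and Sox3 and Sox4 -0.855. Sox2, Sox3, Sox4 and Sox11 had group means less than 1 apart and were not matched to other genes.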

How the data were processed

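RNA (50 ng per sample) was labelled with a 2-cycle protocol and hybridised to Affymetrix mouse arrays, per the labels' protocols. The deposited values are log2 signals of 45101 probe sets on 11 arrays, from 2.37 to 14.717; the submitters' processing notes name MAS5 without a role, and the normalization is not given in the sources used here. Gene symbols came from the platform annotation, and probe sets with several symbols (932), none (9160) or control function (64) were left out. Genes were tested where their mean reached 4.30, percentile 40 of the probe-set means. One linear model with 4 group means was fitted with limma 3.58.1 in R 4.3.3 (eBayes with an intensity trend, 7 residual degrees of freedom) and checked on simulated data. Each array counted as 1 sample of pooled litters; p-values measure the spread between these pools, and 11 arrays limit the precision.

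The members and gene lists were chosen with earlier results of these data known. Genes named were the members, other Sox genes, for each list and direction the 2 genes of lowest p (examples are printed), and the 3 nearest genes of members whose group means span at least 1 log2 unit. Same-numbered arrays of both regions deviated from their group means together (correlations 0.576 and 0.697 in the E8.5 pairs, then 0.308, 0.341 and 0.687 in the E9.5 pairs). As an alternative, numbers were taken to pair arrays within a stage. No label says what a number marks. The 2 closed E8.5 arrays deviate from their mean as mirror images, so each open E8.5 array correlates positively with 1 of them. In both regions the 3-prime excess was lowest in replicate 2 at E8.5 and in replicate 3 at E9.5. Pairing and RNA quality therefore cannot be told apart by these correlations. Arrays of different stages, which cannot be pairs, correlated as highly (0.756 for closed E8.5 replicate 2 with open E9.5 replicate 3). Differently numbered arrays of the same stage reached 0.317 (open E9.5 replicate 2 with closed E9.5 replicate 1). Of the listed endoderm, somite, surface ectoderm, neuron and blood and vessel markers, 5, 7, 8, 7 and 4 were tested. Between the regions on day 8.5, 0, 1, 4, 3 and 0 of them passed, where 7.17% of all tested genes did. On day 9.5, 1, 1, 2, 3 and 1 passed, where 8.54% did. The endoderm, somite and surface ectoderm calls were all lower in closed tissue. The neuron calls were 2 higher and 1 lower on day 8.5 and 3 higher on day 9.5, and the blood and vessel call was higher. Alternatives covered scaling, filters, probe-set choice, weights, blocks and each array left out; the block with the control signal was chosen after seeing the data.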

Additional observations from a re-analysis of the deposited data

Results flagged for a closer look

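The difference in Sox1 between closed and open tissue changed from 2.97 at the earlier stage to 1.05 at the later one, a change of -1.92 (SE 0.23, limma adjusted p = 0.00191 for the interaction term). Open tissue held 3 arrays at each stage, and all 3 later arrays (7.37 to 7.83) lay above all 3 earlier ones (5.68 to 6.08). It was singled out because the same contrast differed between the stages by this test. The second Sox1 probe set, near the low-signal limit, did not show it.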

How the results depend on the processing

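The calls for Sox1 and Sox9 kept their direction and side of the threshold in every alternative run, and 809 of the Sox log2 differences did so in all, with 43 reversed, 17 newly past the threshold and 6 no longer past it, all 6 of Sox2 in closed against open E9.5 tissue. In closed tissue between stages the count of Sox genes past the threshold went from 0 to 1, Sox11, with the mean of all probe sets, a replicate block by number, the 3-prime excess as covariate, or open E9.5 replicates 1 and 2 left out together. It ranged from 0 to 1 when single arrays were left out. Open E9.5 arrays do not enter the comparison of closed tissue between stages, so leaving them out changed only the estimated spread and the adjustment. Values that changed sign were small or of Sox3 and Sox4, and the cause was not tested. Sox11 between E9.5 regions was -0.017 after median centring. With the mean of all probe sets, Sox4 was 0.039 between E9.5 regions, -0.17 between stages in open and 0.038 in closed tissue, and 0.20 for the changed region difference, where Sox21 was 0.21. Sox4 between stages in open tissue was -0.0048 after quantile normalization. With the 3-prime excess as covariate, Sox3 was -0.25 between E9.5 regions, 0.72 between stages in open tissue and -0.85 for the changed region difference, and Sox4 -0.33 and 0.23 in the last 2. Without open E9.5 replicates 1 and 2 the same contrasts gave -0.56, 0.78 and -0.85 for Sox3 and 0.044, -0.33 and 0.20 for Sox4. A replicate block by number over both stages gave -0.16 for the Sox3 changed region difference. The block within stages, with 2221 genes called between E9.5 regions, changed the calls given in the report for Sox3, Sox4 and Sox11 and no other Sox call. Leaving out single arrays gave ranges across 0. For Sox3 these were -0.15 to 0.73 and -0.026 to 0.82 between regions (E8.5, then E9.5), -0.60 to 0.25 and -0.51 to 0.37 between stages (open, then closed), and -0.37 to 0.53 for the change. For Sox4 they were -0.36 to 0.061 between E8.5 regions, -0.18 to 0.17 and -0.34 to 0.083 between stages, and -0.35 to 0.076 for the change. Sox11 ran from -0.089 to 0.10 between E9.5 regions and Sox21 from -0.28 to 0.048 for the change. Counts over all genes moved by more than 1.5 times with the covariate (1519, 1764, 730 and 297 for the E8.5 regions, E9.5 regions, closed stages and change), with array weights (3424 and 4301 for E9.5 regions and open stages, 215 for closed stages), with the block within stages (452 for the change), with only the compared groups (150 for closed stages), and with open E9.5 replicates 1 and 2 left out (603, 182 and 72 for E9.5 regions, open stages and change). With single arrays left out they ranged from 367 to 1262 between open stages, 174 to 375 between closed stages and 84 to 239 for the change.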
